A study of Drosophila melanogaster with 13 samples.

Results

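Testes lacking aly were compared with testes lacking topi, on 2 arrays each of the 13 arrays in the study. The arrays were taken by their labels, and no measured value was used to choose them. The whole study profiled testis RNA of Drosophila melanogaster in 5 genotypes on single-colour Agilent arrays, and the other 9 arrays held sa (2), dany (3) and control (4) testes. Each array received RNA from 80 pooled testes of males aged 0 to 2 days and reared at 25 °C, and the labels describe replicates as biological. The aly males combined the alleles aly[2] and aly[5], each on a chromosome also marked with red and e, and had w* on the X. The topi males combined topi[Z3-0707] with topi[Z3-2139], and had the marker bw and + on the X. The sa males combined sa[1], on a chromosome with th and red, and sa[2], on one with ru, h and ca, and had + on the X. The dany males had w[1118] on the X and carried the deficiency Df(2R)BSC802 opposite the allele dany[ex11]. Controls had the same X and the same deficiency opposite a + chromosome, so they were heterozygous for it. The X chromosome and the markers of the aly and topi stocks differed, so the effect of the mutation and that of the stock background cannot be told apart in any difference given here. No probe could be assigned to aly or topi, and neither gene was checked in its own mutant.

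Both genes encode subunits of tMAC, the testis-specific relative of the MMB and dREAM complexes that switches on the transcription programme of primary spermatocytes. Aly is a homologue of the Myb-binding subunit Mip130 (LIN-9 in worms) and Topi is a zinc finger protein that can bind DNA. Loss of either gene stops germ cells as mature primary spermatocytes, before meiosis and spermatid formation, whereas sa encodes a testis-specific TAF that acts at many of the same promoters. The comparison asks in which transcripts the loss of one subunit leaves a different testis RNA from the loss of the other.

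A level below is the log2 processed signal of a probe minus the 75th percentile of its array, so 0 is a fairly bright probe. A target is a transcript, cDNA clone or gene that the array names. Probes well above background made up 66.5% and 64.5% of all probes on aly 1 and aly 2, against 62.4% and 64.5% on topi 1 and topi 2, and no spot was saturated. Of 19758 targets tested, 361 had a gene symbol in the table used, and named genes are thus a small sample of the array. Among markers of cell types, the somatic genes eya, ptc and puc and the spermatid genes f-cup and soti were the only ones that could be matched. In such whole testes, fewer cells of a type and less RNA per cell cannot be told apart.

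The array topi 2 stood apart from topi 1. Across targets the topi arrays correlated at r = 0.916, against 0.972 for the aly arrays and 0.968 for the sa arrays. The correlation with the control arrays was 0.781 to 0.803 for topi 2 and 0.582 to 0.610 for topi 1, while aly 1 gave 0.652 to 0.668 and aly 2 gave 0.653 to 0.676. At least an 8-fold gap between the topi arrays was seen in 1160 targets, and 1158 of them were brighter on topi 2. Of those 1158, 1154 stood above background on all 4 control arrays, with a median level of 3.98 in control.

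The same pattern appeared in the 1215 targets detected above background by each control array and by neither aly array. Of these, topi 2 detected 672 and topi 1 detected 199, and 498 were seen on topi 2 without topi 1. In the 165 targets with a control level from 0 to 2, the median level of topi 2 lay 4.48 below control on the log2 scale, or 4.47% of the control signal. Above background there were 86.7% of these targets on topi 2 and 14.5% on topi 1. The slide that held topi 2 also held control, dany and sa arrays, and on the 1158 targets those arrays exceeded the others of their genotype by a median of 0.13, 0.20 and 0.07. The counts of calls are therefore also given without topi 2, and called values of named targets without any aly or topi array that moves them by more than 1.5-fold or ends the call. What made topi 2 differ was not tested.

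**Figure D1:**
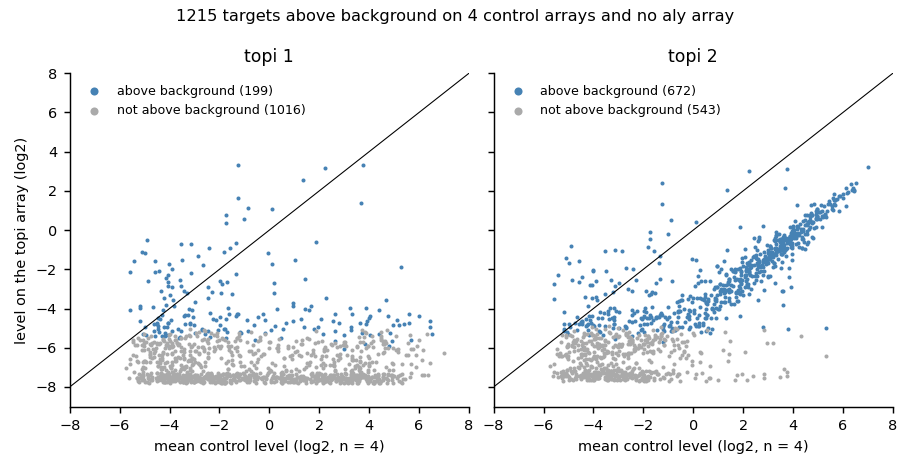
Level on topi 1 (left) and topi 2 (right) against the mean control level (log2, n = 4) for the 1215 targets above background on all control arrays and on no aly array; blue points are above background on the topi array and the line marks equal levels. On topi 1 most points lie at background, with 199 above it, whereas on topi 2 672 are above it and the brighter ones run parallel to the line of equal levels.

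A smaller set of targets moved with slide 1, which held aly 1. At least 8-fold higher signals on aly 1 than on aly 2 were seen in 287 targets, against 12 in the other direction. On those 287 targets the slide 1 arrays of control, dany and sa also exceeded the other arrays of their genotype, by medians of 1.94, 2.38 and 2.97 on the log2 scale. Over all tested targets the same 3 medians were 0.01, -0.10 and -0.22. Of the 287 targets, 73 (25.4%) were called between aly and topi, against 14.9% of all targets.

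Loss of aly and loss of topi left testis RNA that differed in 2936 of 19758 targets, or 14.9%. Calls required a 2-fold difference or more and an adjusted p (limma, Benjamini-Hochberg) below 0.05. Spread was pooled over all 13 arrays of the study. The SE and adjusted p of a target therefore do not measure the spread of the aly and topi arrays alone. In aly 1480 targets were higher (7.49%) and 1456 were lower (7.37%). Differences of at least 8-fold numbered 512 higher and 354 lower. Called shares for the same targets were 60.5% for aly against control and 63.7% for topi against control, and these comparisons share the control arrays. Against sa they were 34.3% for aly and 39.6% for topi.

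Without topi 2, 1555 targets were higher (7.87%) and 1281 lower (6.48%) in aly, of which 1112 and 1105 were also called with both topi arrays. Without topi 1 the counts were 1447 and 2094. Leaving out 1 topi array could not reverse the direction of a called target, because its aly and topi levels did not overlap. The 4 arrays did not overlap in any called target, but non-overlap was also common elsewhere: 22.5% of all targets lay wholly higher in aly and 31.2% wholly lower.

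**Figure D2:**
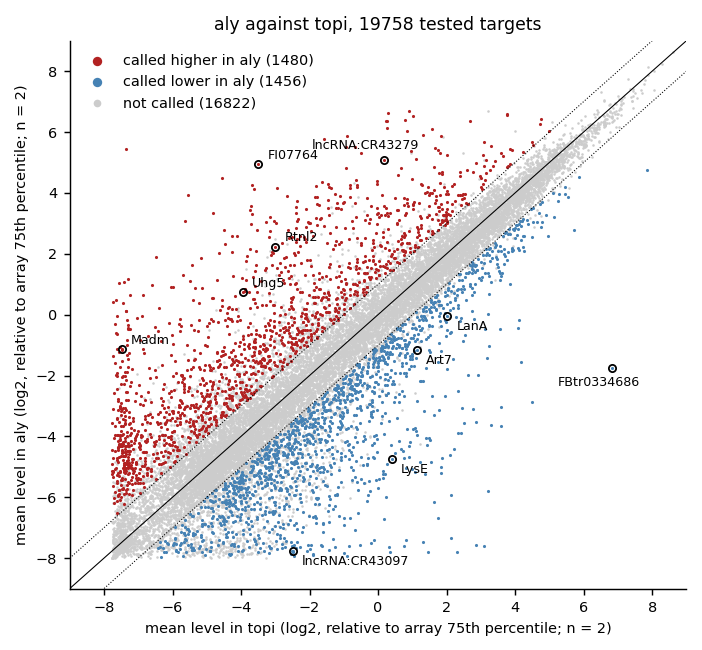
Mean level in aly (vertical) against mean level in topi (horizontal), log2 relative to the 75th percentile of each array, n = 2 arrays each, for 19758 targets; red marks 1480 called higher in aly, blue 1456 called lower, and dotted lines mark 2-fold. FI07764 and Madm are examples far above the diagonal, and FBtr0334686, LysE and lncRNA:CR43097 far below it.

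Slide 2 held both aly 2 and topi 1, which allows the comparison within 1 slide. All 1480 higher and 1456 lower targets had the same sign on this pair, and 1397 and 1348 of them differed at least 2-fold there, although both arrays had also served in the fit. A selection made on the slide 2 pair alone was then read on the other pair, aly 1 minus topi 2, which shares no array with it. Of 1329 targets at least 4-fold higher in aly 2, 962 (72.4%) were at least 2-fold higher in aly 1, while 18.5% of all targets were. In the opposite direction 831 targets were at least 4-fold lower in aly 2, and 672 of them (80.9%) were at least 2-fold lower in aly 1, while 17.6% of all targets were. Opposite signs on the other pair were seen in 258 of the 1329 and in 50 of the 831.

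**Figure D3:**
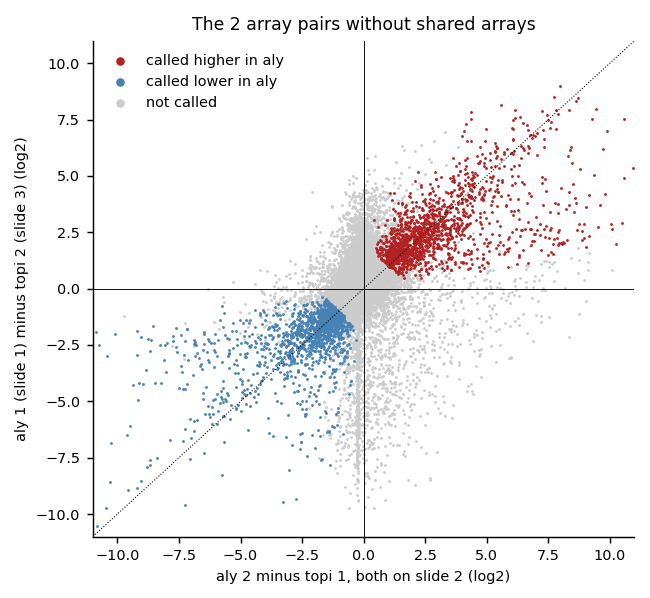
Difference on the slide 2 pair (aly 2 minus topi 1, horizontal) against the difference on the other pair (aly 1 minus topi 2, vertical), both log2, for all tested targets; red and blue points were called higher and lower in aly. The uncalled points at lower right, positive on slide 2 and negative on the other pair, include the 258 targets with opposite signs.

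In the called targets, control testes fell on either side of the mutants. For the 1480 higher targets the median level was -0.96 in aly and -3.87 in topi, with -1.81 in sa, -1.35 in dany and -2.39 in control. The control mean lay below both mutants in 532 of them, between the mutants in 527 and above both in 421. For the 1456 lower targets the median was -4.13 in aly and -1.47 in topi, with -2.38 in sa, -1.44 in dany and -2.51 in control. Here the control lay below both mutants in 665, between them in 383 and above both in 408.

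Some transcripts were detected in 1 mutant and not in the other. Above background on both aly arrays and on neither topi array were 392 of the higher targets. Where a bound on the fold could be set, the median was at least 5.04-fold. Of the 392, 155 were above background on no control array, 153 on all of them, and 41 in no genotype but aly. The converse set, above background on both topi arrays and on neither aly array, held 262 of the lower targets. Its median was at least 6.35-fold where a bound could be set. In that set 73 were on no control array, 132 on all of them, and 14 in no genotype but topi. With topi 2 left out of both the calls and the detection, the sets held 590 higher and 251 lower targets. For such targets the fold is a bound. It was taken between the brighter mutant and either the signal of the dimmer one or the faintest signal above background on its arrays, whichever is higher. No bound was set where another probe of the target rose above background in the dimmer mutant, or where that higher value exceeded the brighter mutant.

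Among the named genes, 8 noncoding RNAs transcribed from the X chromosome were higher in aly. Of 90 tested members of a list of long noncoding, antisense and small nucleolar RNAs, 13 were higher and 7 lower in aly. This was 22.2% called, against 14.9% of all targets (7.49% higher and 7.37% lower). Differences in the list ran from -5.37 to 5.83, with a median of -0.18. The 18 members on the X included 8 higher and 0 lower, with a median difference of 1.04, and the 72 elsewhere included 5 higher and 7 lower, with a median of -0.23. Of the other 31 matched genes on the X, 0 were higher and 3 lower by limma, with a median of -0.15. At an unadjusted p under 0.05 the counts were 9 higher and 0 lower for the noncoding members, and 2 and 5 for the other genes. Over all targets the median was -0.13. Without topi 2 the X members again gave 8 higher and 0 lower, and the whole list gave 15 and 6. The split by chromosome was made after these values were seen, and no test was made of it. The X also differed between the aly and topi stocks, and some of the 8 RNAs are neighbours in the RefSeq table, as given below.

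lncRNA:CR32661 had levels of 5.30 and 5.46 in aly, against -0.74 and 2.64 in topi. The difference on the log2 scale was 4.43 (SE 0.77, adjusted p = 0.00288), 6.12 without topi 2 and 2.74 without topi 1. A second probe gave 2.53 (SE 1.10). Its neighbour in the RefSeq table, lncRNA:CR43157, was seen on both aly arrays at -3.67 and -4.26 and stood at background on the topi arrays at -7.53 and -7.42. Its signal in aly exceeded that in topi at least 5.08-fold (adjusted p = 0.00136). The neighbours differed in control testes, where CR32661 was bright at 6.55 ± 0.08 and CR43157 was dark at -8.03 ± 0.57 (SD, n = 4 each).

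A second pair of neighbours, lncRNA:CR32657 and lncRNA:CR32658, was also higher in aly. CR32658 had 6.30 and 6.88 in aly, against 2.80 and 4.71 in topi, a difference of 2.84 (SE 0.51, adjusted p = 0.00347), 3.80 without topi 2 and 1.89 without topi 1. All 3 of its probes were higher, by 2.84 to 3.07. CR32657 had 4.71 and 5.03 in aly, against 3.31 and 3.39 in topi, a difference of 1.52 (SE 0.25, adjusted p = 0.0018). For both RNAs the control level was above aly, at 7.71 ± 0.20 for CR32658 and 6.26 ± 0.14 for CR32657 (SD, n = 4 each).

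lncRNA:CR43279 showed the widest gap between the topi arrays among the named genes that passed. It had 4.79 and 5.38 in aly, against -2.53 on topi 1 and 2.87 on topi 2, a difference of 4.92 (SE 1.21, adjusted p = 0.019). Without topi 2 the difference was 7.62, and without topi 1 it was 2.21. The call was lost without aly 1 (adjusted p = 0.0682) and without aly 2 (adjusted p = 0.0967), and a second probe gave 5.48. lncRNA:CR42767 had 4.24 and 3.07 in aly, against -2.38 and -0.04 in topi (difference 4.87, SE 0.73, adjusted p = 0.00117), and differed by 6.03 without topi 2 and 3.70 without topi 1. The aly levels of both were near those of sa, which averaged 5.56 for CR43279 and 3.39 for CR42767. For CR43279 the control arrays lay above both aly arrays, at 5.92 to 6.49.

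The remaining called members on the X were asRNA:CR43637 and lncRNA:CR32690. asRNA:CR43637 had -0.25 and -0.09 in aly, against -5.30 and -3.65 in topi (difference 4.30, SE 0.61, adjusted p = 0.000808), and differed by 5.13 without topi 2 and 3.47 without topi 1. lncRNA:CR32690 had 1.39 and -1.96 in aly, against -7.37 and -4.86 in topi (difference 5.83, SE 1.54, adjusted p = 0.0263), and differed by 7.09 without topi 2. This RNA was among those brighter on slide 1, and its call was lost without topi 1 (4.58, adjusted p = 0.137) and without aly 1 (4.16, adjusted p = 0.211). Without aly 2 it was 7.51. The RNAs of dosage compensation on the male X, roX1 and roX2, did not pass, with differences of -0.19 and -0.29. Their other probes gave -0.42 to 0.79.

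**Figure D4:**
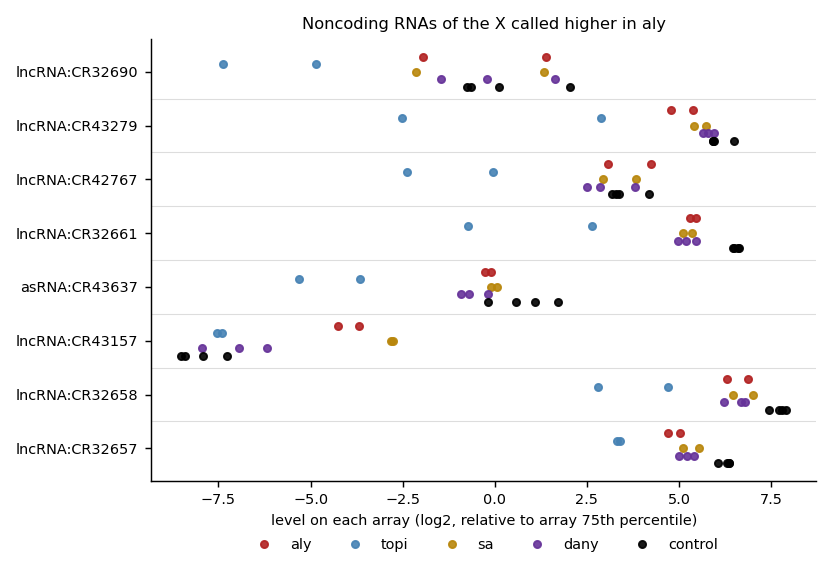
Level on each array (log2 relative to the 75th percentile) for the 8 noncoding RNAs of the X called higher in aly, each dot 1 array, with genotypes offset vertically from aly at the top to control at the bottom. In all 8 the topi dots lie below the aly dots. Control is brighter than aly for lncRNA:CR32657, lncRNA:CR32658, lncRNA:CR32661 and lncRNA:CR43279, and dark, like dany, for lncRNA:CR43157.

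Noncoding RNAs on other chromosomes moved in both directions. Uhg5, a host gene of small nucleolar RNAs, had 0.79 and 0.68 in aly, against -3.52 and -4.35 in topi, and was higher by 4.67 (SE 0.29, adjusted p = 2.5e-06). In control testes it was at -2.34 ± 0.17 (SD, n = 4), between the mutants. asRNA:CR43609 had -1.16 and -0.84 in aly, against -3.36 and -3.30 in topi, a difference of 2.33 (SE 0.33, adjusted p = 0.000719). It lay below both mutants in control, at -5.26 ± 0.40. lncRNA:CR40629, on the Y chromosome, had -3.25 and -2.85 in aly, against -4.26 and -4.52 in topi (difference 1.33, SE 0.39, adjusted p = 0.0426). This call was lost without any 1 of the 4 arrays (adjusted p from 0.07 to 0.191).

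asRNA:CR43471 and lncRNA:CR33938 were seen in aly and not above background in topi. The first had -2.57 and -2.15 in aly and -6.03 and -5.29 in topi, at least 9.88-fold higher in aly (adjusted p = 5.02e-05). The second had -4.55 and -4.48 in aly and -7.47 and -7.31 in topi, at least 3.48-fold higher (adjusted p = 4.98e-05).

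The lowest difference of the noncoding list was that of lncRNA:CR43282, with -4.40 and -6.05 in aly, against 0.33 and -0.04 in topi (difference -5.37, SE 0.94, adjusted p = 0.00294). Aly 1 was above background and aly 2 was not, and the difference was -6.20 without aly 1 and -4.55 without aly 2. lncRNA:CR43097 was at background on both aly arrays. It had -7.65 and -7.88 in aly, against -2.50 and -2.47 in topi, at least 17.0-fold lower in aly (difference -5.27, SE 0.30, adjusted p = 1.29e-06). The topi arrays gave nearly equal values, and control testes were brighter than both mutants at 1.41 ± 0.23 (SD, n = 4). lncRNA:CR43459 had -6.58 and -7.90 in aly, against -3.20 and -2.54 in topi, at least 13.1-fold lower (adjusted p = 0.000709). The fitted difference of -4.37 was -5.03 without aly 1 and -3.71 without aly 2. The smallest fall of the list was that of lncRNA:CR43301, with -2.17 and -2.06 in aly, against -1.21 and -0.84 in topi (difference -1.09, SE 0.26, adjusted p = 0.0178). It did not pass without topi 2 (-0.90), aly 1 (-1.03) or aly 2 (-1.14).

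In 3 further RNAs dark in aly, topi 2 was brighter than topi 1. Each was also called without topi 2, with differences of -2.41 for asRNA:CR43476, -1.90 for lncRNA:CR41443 and -2.72 for asRNA:CR43426. Without topi 1 the same 3 differences were -4.38, -3.95 and -4.31. asRNA:CR43476 had -5.42 and -7.57 in aly, against -4.08 and -2.11 in topi (at least 7.86-fold lower, adjusted p = 0.00694). Without aly 1 its difference was -4.47, and without aly 2 it did not pass (-2.32, adjusted p = 0.0527). lncRNA:CR41443 had -5.70 and -5.84 in aly, against -3.87 and -1.82 in topi (at least 7.58-fold lower, adjusted p = 0.0037). asRNA:CR43426 had -7.74 and -7.99 in aly, against -5.14 and -3.56 in topi (at least 4.68-fold lower, adjusted p = 0.000256). All 3 were brighter in control, at 1.58 ± 0.23, 0.95 ± 0.31 and 2.61 ± 0.13 (SD, n = 4 each). hpRNA:CR33940, a hairpin RNA of the class that gives endogenous siRNAs, had 2.39 and 1.82 in aly, against 4.27 and 3.54 in topi (difference -1.80, SE 0.40, adjusted p = 0.0107), and 1.72 ± 0.11 in control. It did not pass without topi 1 (-1.43, adjusted p = 0.0579) or without aly 2 (-1.52, adjusted p = 0.0839).

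Among protein-coding genes Madm, which encodes a pseudokinase adaptor, showed the largest switch. Its levels were -1.39 and -0.88 in aly, against -7.36 and -7.61 in topi, where neither array rose above background. In aly it was at least 36.2-fold higher (fitted difference 6.35, SE 0.26, adjusted p = 1.3e-07). The sa arrays had -2.90 and -2.53 and control averaged -2.60 ± 0.22 (SD, n = 4). Of aly, topi, sa and control, only topi was thus without signal. The dany arrays were left out of this comparison, so it does not single out topi among all genotypes of the study.

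Rtnl2, a reticulon-like gene of the endoplasmic reticulum, had 2.25 and 2.21 in aly, against -4.44 and -1.55 in topi. It was higher by 5.23 (SE 0.70, adjusted p = 0.00051), by 6.67 without topi 2 and by 3.78 without topi 1. Control testes had 3.00 ± 0.39 (SD, n = 4), close to aly. Cpr60D, a cuticle protein gene, had -2.74 and -2.52 in aly, against -5.12 and -5.74 in topi, at least 6.95-fold higher (adjusted p = 0.000159). Grl40a, a gene of the gustatory receptor-like family, had -2.95 and -2.22 in aly, against -5.04 and -4.36 in topi (difference 2.11, SE 0.36, adjusted p = 0.00245).

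Of the named protein-coding genes LysE, a lysozyme of the digestive tract, had the largest fall. It had -5.12 and -4.37 in aly, against 0.75 and 0.05 in topi, a difference of -5.14 (SE 0.40, adjusted p = 1.35e-05). The sa and control arrays were as low as aly, at -5.62 on average in sa and -5.94 ± 0.50 in control. Among aly, topi, sa and control, topi was thus the high genotype. Here too dany was left out, so LysE is not shown to be high in topi alone. The other digestive enzymes tested, Jon65Aiii and epsilonTry, were near background in both mutants, with differences of -0.11 and 1.21 that did not pass.

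Art7, an arginine methyltransferase gene, was at background in control and sa and bright in both tMAC mutants, with dany not compared. It had -0.62 and -1.69 in aly, against 1.72 and 0.57 in topi, a difference of -2.30 (SE 0.70, adjusted p = 0.0478). Without topi 1 it did not pass (-1.73, adjusted p = 0.222), nor without aly 1 (-2.84, adjusted p = 0.0677) or aly 2 (-1.77, adjusted p = 0.229), and without topi 2 it was -2.88. LanA, the laminin alpha chain of basement membranes, had -0.33 and 0.26 in aly, against 2.22 and 1.82 in topi (difference -2.05, SE 0.30, adjusted p = 0.00101), with 0.75 ± 0.25 in control (SD, n = 4).

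Smaller falls were found in 4 further genes. Mob2, a partner of NDR kinases, had -2.54 and -2.10 in aly, against -0.16 and -0.49 in topi (difference -1.99, SE 0.38, adjusted p = 0.00449), but its second probe gave -0.05. RpS7, a small-subunit ribosomal protein gene, had -4.58 and -4.39 in aly, against -3.19 and -2.66 in topi (difference -1.56, SE 0.28, adjusted p = 0.00314). The gene hwt had -2.05 and -1.75 in aly, against -0.17 and -0.84 in topi (difference -1.39, SE 0.32, adjusted p = 0.0129), and did not pass without topi 1 or aly 1 (adjusted p = 0.0675 and 0.0928). Cyp1, a cyclophilin gene, had -4.49 and -4.93 in aly, against -3.14 and -3.34 in topi (difference -1.47, SE 0.44, adjusted p = 0.046), and did not pass without any 1 of the 4 arrays (adjusted p from 0.0961 to 0.199).

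**Figure D5:**
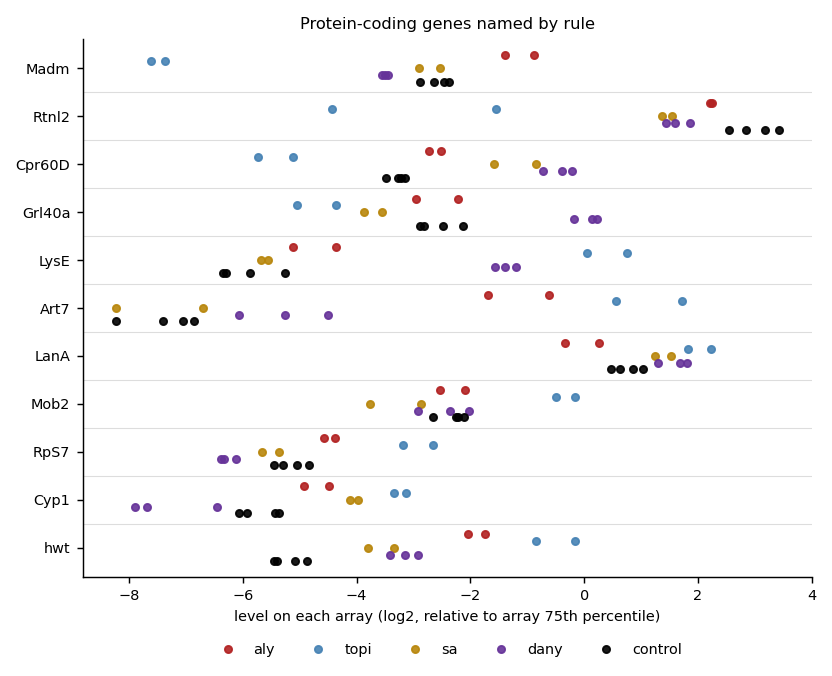
Level on each array (log2 relative to the 75th percentile) for 11 protein-coding genes named by rule, each dot 1 array, with genotypes offset vertically from aly at the top to control at the bottom. Madm is dark on both topi arrays and not in aly, sa or control. LysE is bright on both topi arrays and dim in aly, sa and control, and Art7 is bright in both tMAC mutants.

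Of the matched germline and somatic genes, soti alone passed. The spermatid gene soti, an inhibitor of a ubiquitin ligase in late spermatids, had -4.06 and -3.75 in aly, against -4.81 and -5.11 in topi (difference 1.06, SE 0.30, adjusted p = 0.0343). It did not pass without topi 2 (0.91, adjusted p = 0.136), aly 1 (1.21, adjusted p = 0.0776) or aly 2 (0.90, adjusted p = 0.169). The cup gene f-cup gave -0.08 and hale gave 1.80, which was set by aly 1 at -1.32 against -5.35 on aly 2, and neither passed. For hale the difference was -0.05 with slide as a term in the fit and -0.21 on the slide 2 pair. wuc, a LIN-52 homologue that partners tMAC, had 3.07 and 3.47 in aly, against 4.43 and 3.69 in topi (difference -0.79, adjusted p = 0.155). Of the somatic genes, eya gave -0.40, ptc -0.38 and puc 1.09; 0 passed by limma and 0 had an unadjusted p under 0.05. A dimmer ptc probe gave -1.81 (SE 0.72) and was under 0.05 unadjusted, whereas another dimmer ptc probe gave -0.62 (SE 0.68) and was not. A dimmer eya probe gave 0.54.

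In 8 housekeeping and other lists 5 of 33 tested genes passed, or 15.2%, against 14.9% of all targets. Of 11 mitochondrial genes 1 passed and was higher, and of 5 ribosomal protein genes 1, RpS7, passed and was lower. The mitochondrial gene was Tim17a2, an import channel subunit, with -0.02 and 0.03 in aly, against -1.45 and -1.95 in topi (difference 1.70, SE 0.26, adjusted p = 0.00133). Of 4 chaperone genes 1, Cyp1, was lower. In the lists of 2 cytochrome P450 genes, 5 channel and receptor genes and 1 proteasome gene, 0 passed by limma, and 1, Trpml, had an unadjusted p under 0.05. Of 2 chemoreceptor genes 1, Grl40a, was higher. Of 3 cuticle and eggshell genes 1, Cpr60D, was higher.

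ND-B14.5AL, a gene for a subunit of the complex I family, had a value that rested on topi 2. It had -5.61 and -6.31 in aly, against -4.85 on topi 1 and 0.66 on topi 2, and averaged 4.95 ± 0.22 in control (SD, n = 4). The difference of -3.87 did not pass (adjusted p = 0.0598), but it did under median, quantile and spike-in scaling, in the deposited values and with slide as a random block (adjusted p = 0.0423, 0.0351, 0.00924, 0.0440 and 0.0311). Without topi 1 it was -6.62 (adjusted p = 6.11e-07), and without topi 2 it was -1.11 (adjusted p = 0.0629). Nasp, a histone chaperone gene, likewise had -7.60 and -7.83 in aly, against -7.54 on topi 1 and -4.72 on topi 2, and passed without topi 1 (adjusted p = 1.4e-05) and not without topi 2 (adjusted p = 0.737).

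The largest differences of all lay in targets without a matched gene. The clone FI07764 had 4.86 and 5.01 in aly, against -4.86 and -2.13 in topi, and was higher by 8.43 (SE 0.73, adjusted p = 2.75e-05), by 9.80 without topi 2 and by 7.07 without topi 1. It was bright in sa at 3.26 and 3.40 and dark in control at -6.36 ± 0.66 (SD, n = 4). The clone IP07614 had 5.58 and 5.95 in aly, against -2.47 and -0.71 in topi (difference 7.36, SE 0.48, adjusted p = 3.75e-06; 8.24 without topi 2 and 6.47 without topi 1).

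In the other direction, FBtr0334686 had -0.08 and -3.40 in aly, against 6.87 and 6.76 in topi, a difference of -8.55 (SE 0.76, adjusted p = 3.07e-05). Aly 1 was the brighter aly array, and the difference was -10.21 without aly 1 and -6.90 without aly 2. A second probe gave -7.29. Control testes were as bright as topi at 6.80 ± 0.22 (SD, n = 4). FBtr0087819 had -5.26 and -5.19 in aly, against 1.69 and 1.07 in topi (difference -6.61, SE 0.28, adjusted p = 1.56e-07), and -1.68 ± 0.16 in control.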

How the data were processed

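The authors scanned 13 single-colour arrays and, per the file headers, quantified them in Agilent Feature Extraction 10.7.3.1 with the protocol GE1_107_Sep09. The values the authors deposited per spot are linear intensity, background-subtracted within each array, beside flags of 0 or 1. Their series table, also deposited, is in log2, and its background correction is not given in the sources used here; it served as an alternative. Of 45019 spots per array 1417 were control spots, and 51 to 113 had an outlier flag. Spots were averaged per probe (32162 probes, 25782 targets). Probes had to be well above background on all arrays of 1 genotype or more, and the brightest remaining one stood for its target.

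Levels were fitted on all 13 arrays with limma 3.58.1 (R 4.3.3), 1 mean per genotype, 8 residual degrees of freedom, two-sided, with Benjamini-Hochberg adjustment over all targets. The median standard error was 0.401. Precision is limited by the number of arrays. The fit was tested on simulated data. RefSeq names matched 549 probes. Named were the 8 largest differences each way among symbols that are not bare annotation numbers and above background in both mutants, the 5 largest at-least folds each way, list members, and the 2 largest unmatched targets each way. Uncalled members of the noncoding RNA list are given as counts and a range, apart from roX1 and roX2, which were picked out after their values were seen. The channel and receptor list was a name pattern, which also took in the tRNA synthetase gene TrpRS. Of the lists, 9 held no tested gene. Comparison and lists were chosen with earlier results of these data known. Alternatives covered background correction, scaling, slide and scan day, the filter on dim probes, probe averaging and each array left out.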

Additional observations from a re-analysis of the deposited data

Results flagged for a closer look

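In 4 genes the 4 control arrays held 1 array far from the others, past the critical value of Dixon's test. The control arrays of 76 named targets were examined, and at about 1 in 20 chance alone would mark 3.8. For lncRNA:CR43279 control 2 was highest at 6.49, with the others at 5.92 to 5.96. The other genes all had control 1, on slide 1, as the array apart. Cyp9c1 was at -2.74 there and -4.25 to -4.20 on the others, mRpS24 at -3.42 and -4.82 to -4.74, and Trpml at -3.95 and -3.50 to -3.42. The difference between aly and topi did not pass for Cyp9c1, mRpS24 or Trpml. With slide as a fixed term, scan day as a fixed term or slide as a random block, mRpS24 passed (-2.90, -2.86 and -2.65, adjusted p = 0.0155, 0.00918 and 0.0206, limma).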

How the results depend on the processing

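Against 1480 higher and 1456 lower targets, scaling on the spike-in probes gave 411 and 707, the fit on the aly and topi arrays alone gave 550 and 283, and a filter for probes above background on all 4 arrays gave 897 and 964. Spike-in scaling moved the median difference by -0.50, and the share of calls that were higher was 36.8%, against 50.4%. Without topi 1 that share was 40.9%, and with the 4 arrays alone it was 66.0%. Leaving out each array in turn gave 1051 to 1555 higher and 925 to 2094 lower targets. Calls shared by the fits with both topi arrays and with each alone, a count added after seeing the data, numbered 826 lower. The replicate number as a block gave 1722 and 1624; deviations of aly 1 and topi 1 correlated at -0.019, so the numbers were not taken as pairs. Slide as a random block, with an estimated correlation of 0.508 within slides, gave 1943 and 1822. The main fit had no slide term and treated the arrays as independent. All 38 called named targets kept their direction under the alternatives that gave them a value, and 26 lost the call under at least 1. Spike-in scaling ended 17 of the calls and the fit on 4 arrays 22. Each of these settings ended the calls of Tim17a2, Grl40a, LanA, RpS7, Mob2, lncRNA:CR32657 and lncRNA:CR32658, among others. The median aly 2 minus topi 1 difference was -0.20.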
